A study of Rattus norvegicus with 16 samples.

Results

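GQ-16 and pioglitazone, a pair of drugs that act on the nuclear receptor PPARγ, were compared in glomeruli of rats injured with puromycin aminonucleoside (PAN), a toxin of podocytes. The comparison took 8 of the 16 rats of the series, 4 given GQ-16 and 4 given pioglitazone, and all 13222 genes of the expression table. The rats were male Wistar animals of about 175 g. All 8 had received PAN intravenously and then 1 of the drugs every day by oral gavage. Kidneys were taken on day 11, glomeruli were collected by sieving and poly(A) RNA was sequenced. The other 8 rats, 4 healthy controls (Ctl) and 4 rats with PAN and no drug, enter here as reference levels and in the estimate of the spread. The labels give no dose for either drug and name no litter, cage or batch. The comparison is therefore of a single pair of compounds at doses that the labels leave out. The replicate numbers below only name the rats of a group, and p-values measure the spread between these rats.

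PPARγ forms a heterodimer with a retinoid X receptor on DNA, exchanges corepressors for coactivators when a ligand binds, and drives genes of lipid uptake and storage. Pioglitazone, a thiazolidinedione used against diabetes, is a full agonist. GQ-16 is described as a partial agonist. Full agonists are known clinically for fluid retention, and collecting duct sodium transport has been studied in that connection. In fat cells, PPARγ ligands also block the phosphorylation of the receptor by the kinase Cdk5, apart from classical activation. In the glomerulus, PPARγ agonists are known as agents that can reduce proteinuria in experimental nephrotic syndrome.

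Values for single rats are given as scaled CPM, that is, CPM (reads scaled to the library total) after every library was brought to the same median gene. Log2 differences are GQ-16 minus pioglitazone on the same scale, with 95% intervals from limma, and a gene was called at an adjusted p under 0.05. Glomerular identity was checked on podocyte genes. Nphs1, which encodes nephrin of the slit diaphragm, lay between 805 and 3289 scaled CPM in the 8 treated rats. All 21 proximal tubule genes of a marker list were also detected, with a summed level of 5221 to 15950 scaled CPM under pioglitazone and 7713 to 14240 under GQ-16, so the preparations held tubule RNA as well.

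The promoters of 3 genes discussed below, none of them called, are printed here as RefSeq gives them for assembly GRCr8. Each is shown as the 250 bases before the annotated start, on the plus strand. The expression table was made on Rnor_6.0 per the submitters' processing notes, so no coordinate is carried from one to the other. Cdkn1a had the smallest p of the comparison and is a classical p53 target, Aqp2 is the water channel of the collecting duct, and Scnn1g encodes a subunit of the epithelial sodium channel. Capitals mark matches, on either strand, to a p53 half-site or to the GC box GGGCGG. The windows are chr20:7150682-7150931 for Cdkn1a, chr7:132590036-132590285 for Aqp2 and chr1:185735975-185736224 for Scnn1g.
Cdkn1a: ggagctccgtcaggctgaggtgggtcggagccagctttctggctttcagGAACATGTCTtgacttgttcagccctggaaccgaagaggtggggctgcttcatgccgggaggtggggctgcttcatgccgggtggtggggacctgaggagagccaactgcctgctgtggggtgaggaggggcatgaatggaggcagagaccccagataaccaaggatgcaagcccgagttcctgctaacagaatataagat
Aqp2: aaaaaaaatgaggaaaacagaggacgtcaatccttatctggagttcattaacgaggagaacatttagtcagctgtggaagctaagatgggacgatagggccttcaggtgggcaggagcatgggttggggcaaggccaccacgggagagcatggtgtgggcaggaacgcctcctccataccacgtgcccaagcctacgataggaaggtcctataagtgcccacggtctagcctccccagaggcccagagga
Scnn1g: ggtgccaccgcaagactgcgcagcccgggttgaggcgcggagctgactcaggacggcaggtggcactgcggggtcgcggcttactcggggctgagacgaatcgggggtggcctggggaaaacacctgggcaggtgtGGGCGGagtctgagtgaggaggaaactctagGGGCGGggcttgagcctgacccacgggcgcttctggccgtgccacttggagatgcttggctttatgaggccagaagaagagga
The Cdkn1a window held 1 p53 half-site, a motif found in 6.64% of 33469 RefSeq promoter windows of the same length. The Scnn1g window held 2 GC boxes, which were present at least once in 30.5% of windows. The Aqp2 window matched no motif searched. The nuclear receptor half-site AGGTCA was in none of these 3 windows and in 14.1% of all windows. A direct repeat of AGGTCA with 1 base between the copies, the DR1 form to which PPAR and retinoid X receptor dimers bind, was in 0.0508% of all windows. Each match is a string of letters and not a site of binding.

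No gene was called between the drugs. Of 13222 genes, 0 (0%) reached the limma threshold, and no limma adjusted p was below 0.611. At an unadjusted limma p under 0.05 there were 946 genes, of which 291 (2.2%) were higher and 655 (4.95%) lower with GQ-16. Without centring the libraries on their median the same count was 785 genes, 58 higher and 727 lower, so the balance of directions rested on the scaling. The voom form of limma on the recovered reads gave 0 calls as well, with 1018 genes at an unadjusted p under 0.05. Weighting the libraries by their estimated quality gave 2 calls (0.0151%), Ptgs1 and Vcan, both lower with GQ-16. That fit gave pioglitazone replicate 2 a weight of 8.63 against 0.437 to 2.99 for the others, and without this rat it gave 0 calls. The count at an unadjusted p under 0.05 was 355 without pioglitazone replicate 1, 418 without GQ-16 replicate 1 and 1475 without pioglitazone replicate 3. The plot of all genes shows the differences against their p-values.

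**Figure D1:**
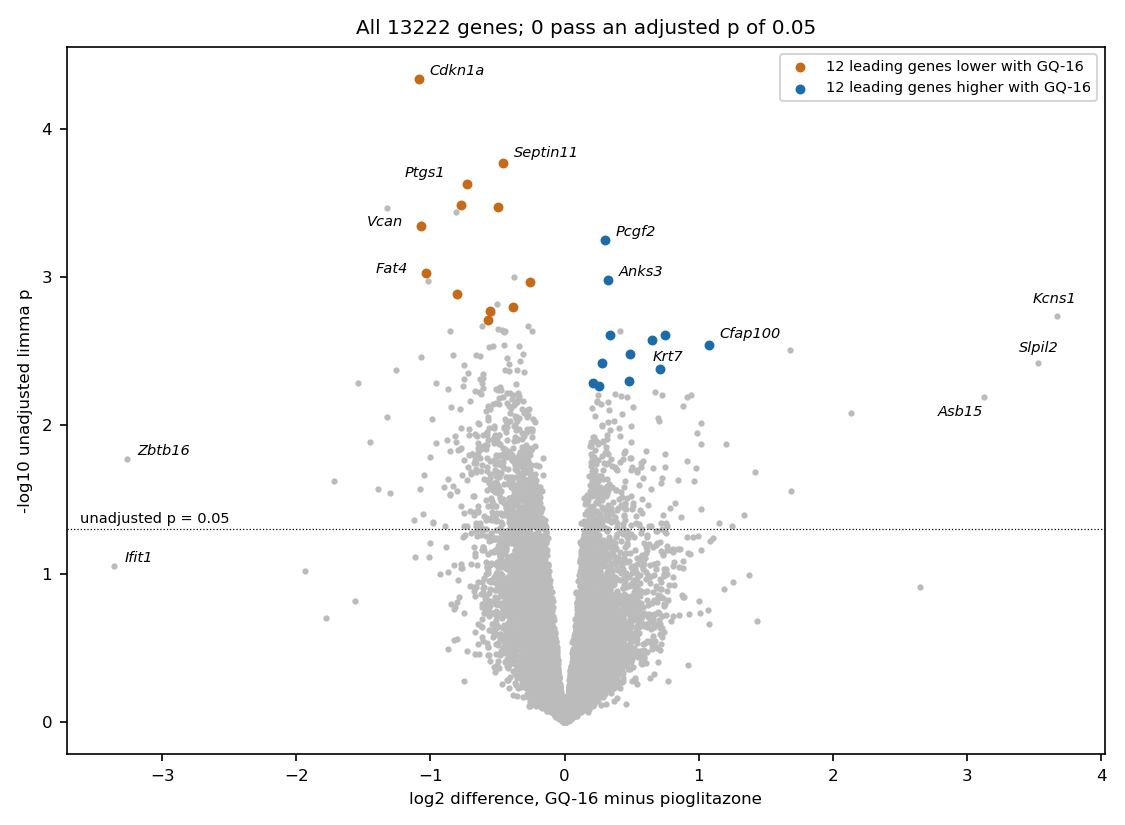
Log2 difference between GQ-16 and pioglitazone for each of 13222 genes (x axis) against the negative log10 of the unadjusted limma p (y axis). Coloured points are the 12 genes lower and the 12 genes higher with GQ-16 that had the smallest p among genes with a mean of at least 5 CPM. Cdkn1a stands highest, at a log2 difference of -1.09, and no gene reached an adjusted p of 0.05.

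The absence of a call does not show that the drugs act alike. The intervals give what the fit could bound, with the spread estimated from all 16 libraries. With only the 8 treated libraries in the fit, 0 genes were called and 611 had an unadjusted limma p under 0.05. In that fit 86.8% of intervals lay within 2-fold. The 95% interval lay within a 2-fold difference in either direction for 11502 genes (87.0%) and within 1.5-fold for 8307 genes (62.8%). The median interval reached 0.32 log2 units to each side, a factor of 1.245. A fitted difference of more than 2-fold was found for 27 genes higher and 27 lower with GQ-16. No overlap between the 4 GQ-16 rats and the 4 pioglitazone rats was found for 125 genes higher (0.945%) and 226 genes lower (1.71%). Rats given different drugs were about as far apart as rats given the same drug. The root mean square log2 distance over all genes had a median of 0.458 over 16 pairs across the drugs, 0.461 over 6 pairs within GQ-16 and 0.476 over 6 pairs within pioglitazone.

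Libraries held 13351137 to 21977663 reads in listed genes. Mitochondrial genes took 16.4% ± 11.2 of the reads with GQ-16 and 14.3% ± 4.57 with pioglitazone (SD, n = 4). The difference was 2.15 points, and an exact permutation test (two-sided) gave p = 0.800. Single rats ranged from 6.76% to 31.4%, the highest being GQ-16 replicate 2, and the 95% Wilson interval of any of these shares was at most 0.0249 points to each side. Without that rat the difference was -2.83 points (exact permutation p 0.514). With the share as a covariate 0 genes were called.

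Cdkn1a (ENSRNOG00000000521), which encodes the cyclin-dependent kinase inhibitor p21, had the smallest p of all genes. It stood at 46.6, 37.2, 34.8 and 33.4 scaled CPM in the 4 pioglitazone rats and at 15.2, 20, 20.4 and 15.9 in the 4 GQ-16 rats. The ranges of the drugs were well apart, and the GQ-16 rats lay near the controls, at 10.2 to 15.8, while the PAN rats were at 35.6 to 63.1. The log2 difference was -1.09, with a 95% interval from -1.49 to -0.68 (limma p 4.62e-05, limma adjusted p 0.611). Over 19 alternative analyses it ran from -1.155 to -0.968 and passed the threshold in none.

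The other p53 target genes had smaller differences. Of the 19 measured genes of that list besides Cdkn1a, 12 were lower and 7 higher with GQ-16, with a median log2 difference of -0.057 beside 0.009 over all genes, and 0 were called. An unadjusted limma p under 0.05 was found for 3 of 19, all lower, beside 4.95% of all genes. With Cdkn1a the mean log2 level of the 20 genes was 4.63 to 4.72 with pioglitazone and 4.50 to 4.58 with GQ-16. Without Cdkn1a the drugs overlapped, at 4.60 to 4.70 and 4.53 to 4.62, so that the gap between them needed this gene. No other member was left out for comparison. The median of all 20 ran from -0.13 (without pioglitazone replicate 1) to -0.024 (without pioglitazone replicate 4). With 1 treated rat left out, the number lower at an unadjusted p under 0.05, 4 of 20 with all rats, ran from 2 to 5. It was 2 without GQ-16 replicate 1 or pioglitazone replicate 1, beside 1.79% and 1.68% of all genes. Without pioglitazone replicate 2 it was also 2, beside 505 of 13222 genes. It was 5 without pioglitazone replicate 3, beside 7.55%. Tp53inp1, a stress-induced p53 target, was at 11.8, 10.9, 9.83 and 10.3 scaled CPM with pioglitazone and 7.12, 6.91, 9.19 and 7.17 with GQ-16. The groups did not overlap, though GQ-16 replicate 3 lay close to the lowest pioglitazone rat, and the log2 difference was -0.50 (-0.73 to -0.27). Tigar, a regulator of sugar phosphate metabolism, had a log2 difference of -0.34 and Rrm2b, a subunit of ribonucleotide reductase, one of -0.27. Mdm2, the ubiquitin ligase that restrains p53 and is itself a p53 target, was at 40.3 to 49.8 scaled CPM with pioglitazone and 41.4 to 48.6 with GQ-16. Its log2 difference of -0.03 had an interval from -0.20 to 0.14, and Ccng1, which encodes cyclin G1, had 0.07 with an interval from -0.37 to 0.51. Both are given although chosen after their values were seen, and both changed sign in some alternatives.

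After Cdkn1a the next 3 genes by p, Septin11, Ptgs1 and Pde5a, were lower with GQ-16 and without overlap, which follows in part from ranking by p. Septin11, a cytoskeletal GTPase, was at 129, 114, 123 and 112 scaled CPM with pioglitazone and at 77.0, 83.9, 94.1 and 94.5 with GQ-16. Its log2 difference was -0.46 (-0.65 to -0.26). Ptgs1, which encodes cyclooxygenase-1, was at 44.5, 34.5, 26.1 and 24.7 with pioglitazone and at 17.0, 22.2, 18.7 and 18.7 with GQ-16. Controls were at 12.4 to 14.4 and PAN rats at 29.3 to 32.7, so that the GQ-16 rats lay between them. The log2 difference of Ptgs1 was -0.73 (-1.05 to -0.41), with a limma adjusted p of 0.659 and of 0.0225 in the quality-weighted fit. Pde5a, the cyclic GMP phosphodiesterase inhibited by sildenafil, was at 15, 12, 8.23 and 11.2 with pioglitazone and at 5.18, 7.88, 7.33 and 6.56 with GQ-16, a log2 difference of -0.77 (-1.12 to -0.42).

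Several of the lower genes had a different relation to the controls. Vcan, the proteoglycan versican, was at 54.6, 41.2, 30.6 and 30.2 scaled CPM with pioglitazone and at 14.7, 23.6, 16.2 and 18.9 with GQ-16. Its controls spread from 19.3 to 42.9 and overlapped the pioglitazone rats. The log2 difference was -1.07 (-1.58 to -0.56), with a limma adjusted p of 0.659 and of 0.0372 in the quality-weighted fit. Fat4, a large protocadherin of planar cell polarity, was at 175, 98.9, 77.8 and 97.3 with pioglitazone and at 37.1, 65.1, 57.0 and 54.1 with GQ-16. Here pioglitazone replicate 1 stood above the other rats of its group, and GQ-16 rats lay below all 4 controls, at 75.5 to 131. Pgr, the progesterone receptor, had a log2 difference of -0.80 (-1.23 to -0.37). Mlxip, a glucose-responsive transcription factor, was at -0.57, the acetyltransferase subunit Naa25 at -0.38 and the Integrator subunit Ints3 at -0.26. Pioglitazone replicate 1 was also the highest of its group in Cdkn1a, Septin11, Ptgs1, Pde5a, Vcan, Pgr, Mlxip, Naa25 and Ints3. GQ-16 replicate 1 was the lowest of its group in these and Fat4, except Naa25 and Ints3. Genes lower at an unadjusted limma p under 0.05 numbered 655 with all rats. They numbered 222 without pioglitazone replicate 1 and 237 without GQ-16 replicate 1.

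Of the genes higher with GQ-16, Pcgf2 had the smallest p. This Polycomb group gene was at 14.1, 13.4, 13.7 and 13.9 scaled CPM with pioglitazone and at 17.8, 16.9, 16.1 and 17.2 with GQ-16. Both groups were tight and did not overlap, with controls at 15.4 to 17.7, and the log2 difference was 0.30 (0.16 to 0.45, limma p 0.000561, limma adjusted p 0.679). Krt7, a keratin of simple epithelia such as the collecting duct and urothelium, was at 50.5, 67.8, 78.0 and 58.3 with pioglitazone and at 108, 84.3, 100 and 105 with GQ-16. The control range of Krt7 was 80.3 to 107 and the difference was 0.66 (0.27 to 1.04). Sema4g, a transmembrane semaphorin, was at 2.81 to 4.13 with pioglitazone and 5.61 to 7.40 with GQ-16, beside 4.90 to 9.66 in controls. Hdac11, a histone deacetylase family member, was at 4.91 to 7.37 and 8.49 to 9.47 in the same order. Cfap100, a ciliary axoneme gene, stood at 4.72, 2.43, 3.18 and 5.68 with pioglitazone and at 13, 7.71, 5.73 and 7.11 with GQ-16, where the highest and lowest of the 2 groups nearly met. The remaining higher genes had log2 differences between 0.22 and 0.71. They were Rap1gap, which switches off the GTPase Rap1, the transcriptional repressor gene Mxd1, the microtubule-severing subunit Katna1, the cation exchanger Slc24a5, and Anks3, Sap25 and Aarsd1. The 23 leading genes examined further kept their direction in every alternative analysis run. As genes without overlap between the drugs they could not reverse when a rat was left out, so those fits were no test of direction. In the promoter windows of the 18 leading genes that RefSeq matched, a p53 half-site was found in 1, AGGTCA in 4, the DR1 form in 0 and the GC box in 10. Over all 33469 windows the shares were 6.64%, 14.1%, 0.0508% and 30.5%. These shares count windows, whereas a gene was counted if any of its windows matched, and the difference was not tested.

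**Figure D2:**
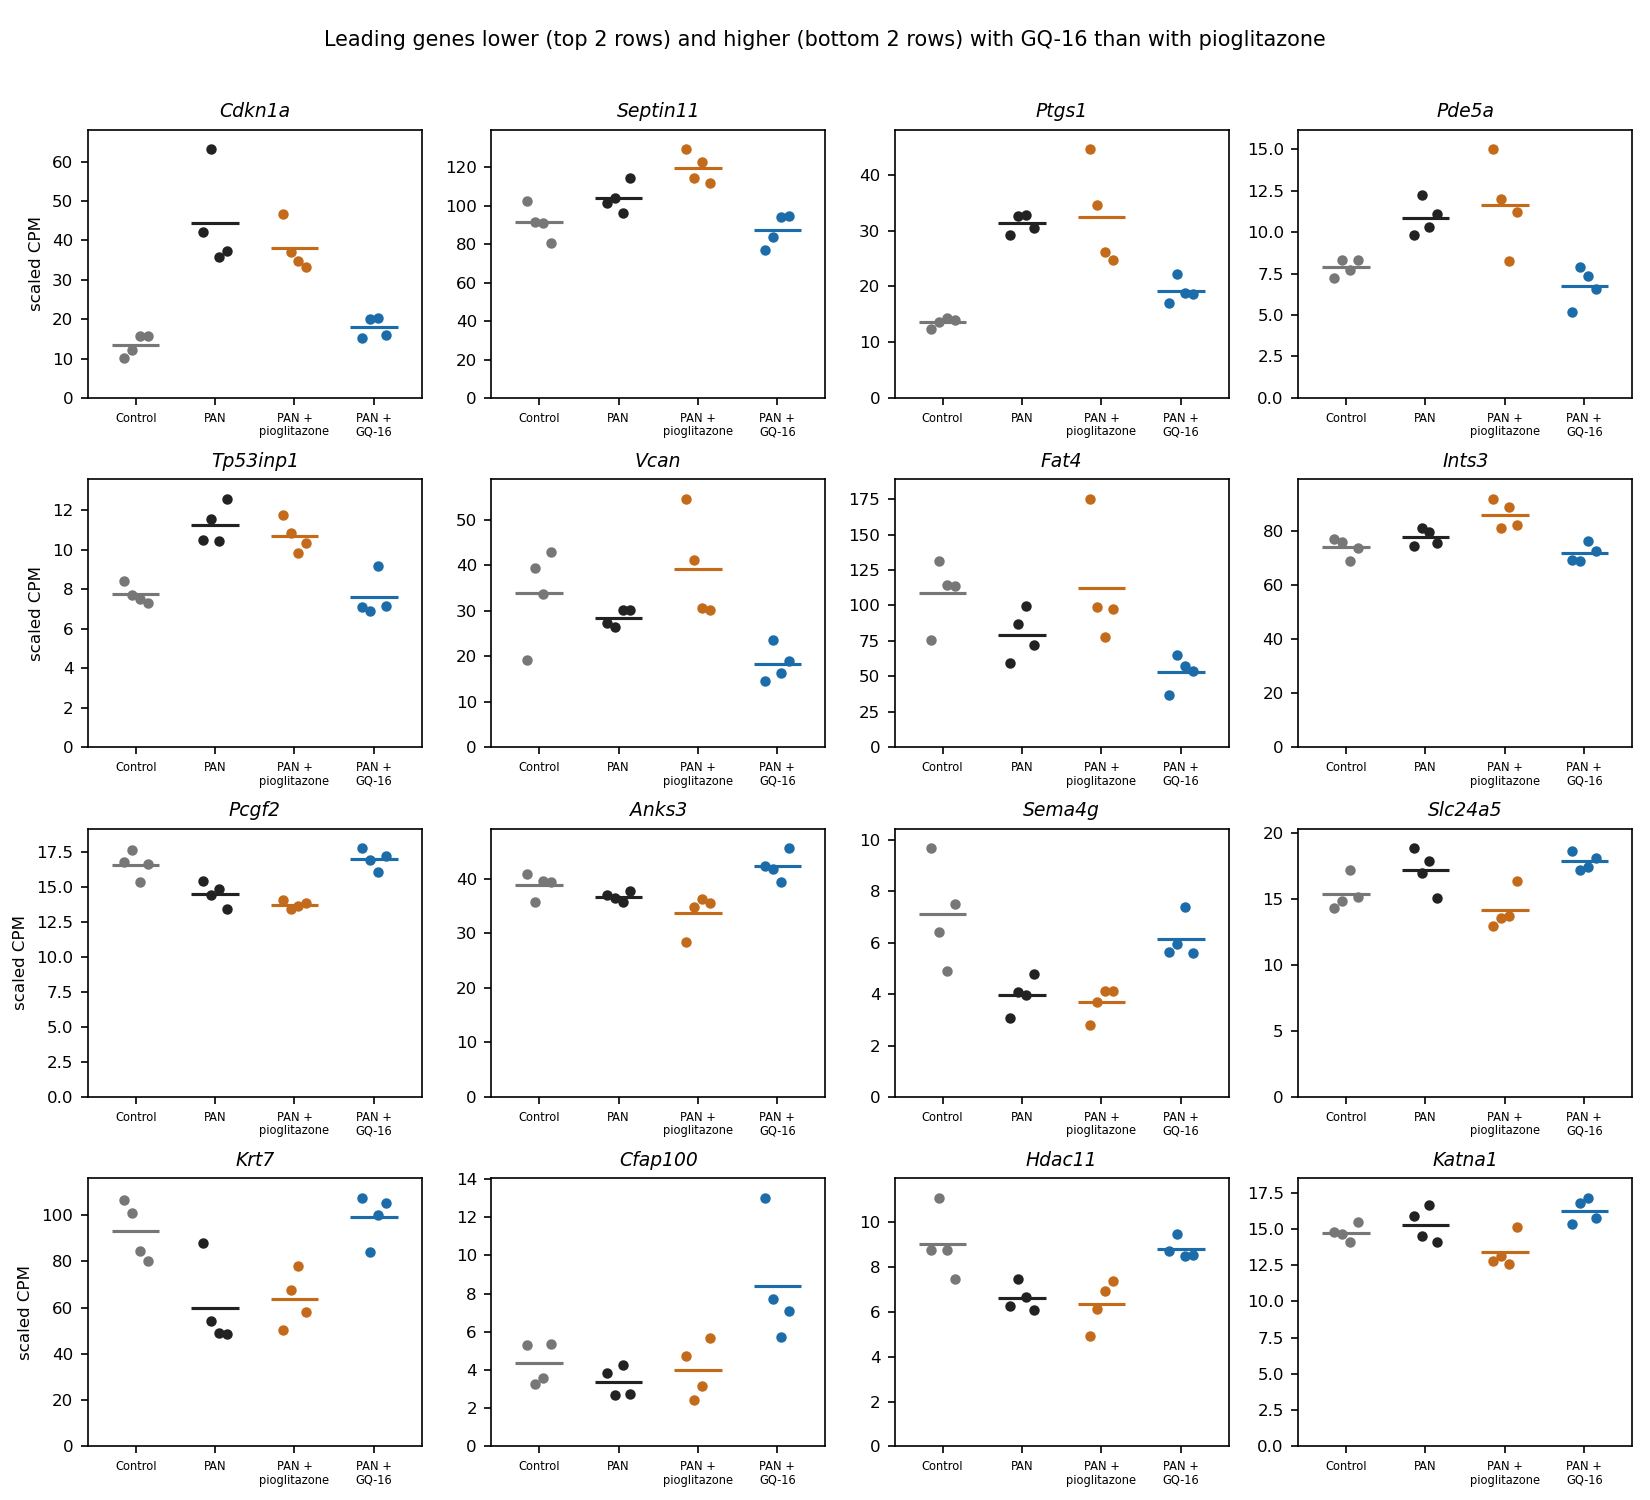
Scaled CPM (y axes, linear, from 0) of 8 leading genes lower and 8 higher with GQ-16 than with pioglitazone, in each of the 16 rats by group (x axes). Points are rats and lines are group means of 4. GQ-16 and pioglitazone rats do not overlap in any panel, and for Cdkn1a the GQ-16 rats (15.2 to 20.4) lie near the controls.

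No gene of fatty acid oxidation and lipid handling on the list of known PPAR targets was called, and the intervals of 20 of 29 lay within 2-fold. Of these 29 measured PPAR target genes, 23 were higher and 6 lower with GQ-16, with a median log2 difference of 0.17, and 2 were higher at an unadjusted p under 0.05, beside 2.2% of all genes. Those were Ech1, a peroxisomal and mitochondrial enoyl-CoA isomerase, and Hadha, the alpha subunit of the mitochondrial trifunctional protein. Ech1 was at 63.2, 64.9, 65.0 and 65.2 scaled CPM with pioglitazone and at 80.0, 75.9, 67.0 and 80.8 with GQ-16, a log2 difference of 0.23 (0.06 to 0.40). Hadha had 0.18 (0.004 to 0.36), with overlap between the groups. Pdk4, the pyruvate dehydrogenase kinase often used as a PPAR readout, was at 5.40, 3.75, 4.88 and 4.48 with pioglitazone and at 4.97, 5.42, 6.57 and 7.45 with GQ-16, and the groups overlapped. Its log2 difference was 0.39, and the interval, from -0.58 to 1.36, includes a level 2-fold higher. Lpl, which encodes lipoprotein lipase, was the lowest member at -0.43 (-0.94 to 0.07), and the glucose transporter Slc2a4 the highest at 0.51 (-0.47 to 1.48). The list median stayed above 0 under each scaling tried, at 0.14 without centring, where 0 were higher and 1 lower at an unadjusted p under 0.05, beside 0.439% and 5.5% of all genes. With the mean level of proximal tubule and distal nephron genes as a covariate (the tubule covariate), 15 were higher and 14 lower and the median was 0.035. In the fits without that covariate that left out 1 treated rat, the median ran from 0.11 (without GQ-16 replicate 1) to 0.25 (without pioglitazone replicate 3). The number higher at an unadjusted p under 0.05 ran from 1 to 5 in those fits. It was 5 without pioglitazone replicate 3, beside 3.61% of all genes, and 1 without pioglitazone replicate 1, beside 1.01%. Pparg, Angptl4, Fabp4 and Cd36 are not analysed here.

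Coactivators that PPARs recruit tended the other way. Of 19 measured receptors, partners and coregulators, 13 were lower and 6 higher with GQ-16, with a median log2 difference of -0.15, and 5 were lower at an unadjusted p under 0.05 beside 4.95% of all genes, with 0 called. Ep300, the histone acetyltransferase p300, was at 48.3, 36.5, 35.3 and 37.2 scaled CPM with pioglitazone and at 19.8, 22.5, 36.9 and 30.4 with GQ-16. GQ-16 replicate 3 overlapped the pioglitazone rats, and the log2 difference was -0.55 (-0.94 to -0.17). The steroid receptor coactivator gene Ncoa3 was at 201, 132, 113 and 114 with pioglitazone and at 80.8, 102, 96.9 and 104 with GQ-16, at -0.51 (-0.91 to -0.11). Its relative Ncoa2 was at -0.46, Med1, the Mediator subunit that binds nuclear receptors, at -0.31 and Ncoa6 at -0.26. Rxra, the heterodimer partner, had -0.21 (-0.51 to 0.10) and the corepressor gene Ncor1 -0.15 (-0.37 to 0.06). Without GQ-16 replicate 1 the number lower at an unadjusted p under 0.05 was 2 of 19, beside 1.79% of all genes in that fit, and without pioglitazone replicate 1 it was 3, beside 1.68%. The list median ran from -0.20 (without pioglitazone replicate 4) to -0.072 (without pioglitazone replicate 3).

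The genes tied in fat cells to phosphorylation of PPARγ by Cdk5 were examined because ligands of low classical agonism are known to act on that site. Of 11 measured genes, 7 were higher and 4 lower, with a median of 0.078, 0 called, and 1 in each direction at an unadjusted p under 0.05, beside 2.2% of all genes higher and 4.95% lower. The mean log2 level of the list was 6.74 to 6.79 with pioglitazone and 6.85 to 6.93 with GQ-16, without overlap. Without its member Selenbp1 the drugs overlapped, at 6.95 to 7.09 and 7.01 to 7.12. With 1 treated rat left out the median ran from 0.021 (without GQ-16 replicate 4) to 0.21 (without pioglitazone replicate 4), and 0 genes had an unadjusted p under 0.05 without GQ-16 replicate 1, 2 or 4 or pioglitazone replicate 1. Selenbp1, a selenium-binding protein gene, was at 15.1, 29.7, 31.6 and 14.3 scaled CPM with pioglitazone and at 36.3, 36.6, 27.2 and 33.6 with GQ-16. It was low in pioglitazone replicates 1 and 4 and otherwise overlapped, at 0.65 (0.007 to 1.28). Rybp, a Polycomb-associated gene, was at -0.31 (-0.60 to -0.02). Cdk5 itself was at 25.2, 25.6, 23.4 and 28.9 with pioglitazone and at 27.6, 23.1, 24.6 and 27.9 with GQ-16, and its log2 difference of 0.001 had an interval from -0.18 to 0.18. The number of genes that could be read here was small, and the transcript of Cdk5 says nothing of the phosphorylation.

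Genes of the collecting duct had higher fitted levels with GQ-16 than with pioglitazone, though as a list in only 2 of the 4 GQ-16 rats. In the list of distal nephron and collecting duct genes all 18 measured members had a higher fitted level with GQ-16, with a median log2 difference of 0.37, 0 called and 4 at an unadjusted p under 0.05 beside 2.2% of all genes. Aqp2, the vasopressin-regulated water channel, was at 9.80, 11.1, 12.4 and 19.1 scaled CPM with pioglitazone and at 29, 23.6, 14 and 33.5 with GQ-16. GQ-16 replicate 3 fell inside the pioglitazone range and the other 3 lay above it. Controls were at 29.1 to 41.5 and PAN rats at 18.7 to 37.8, and 3 of the 4 pioglitazone rats were below all of both. The log2 difference of Aqp2 was 0.91 (0.30 to 1.52, limma p 0.00645, limma adjusted p 0.679). Hsd11b2, which protects the mineralocorticoid receptor from glucocorticoids, was at 28.2, 18.1, 25.4 and 35.1 with pioglitazone and at 71.7, 62.1, 31.5 and 37.6 with GQ-16, a difference of 0.88 (0.28 to 1.49).

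The sodium channel subunits and the vasopressin receptor followed the same order. Scnn1g, the gamma subunit of the epithelial sodium channel, was at 1.93, 1.67, 2.58 and 2.44 scaled CPM with pioglitazone and at 5.86, 4.80, 3.81 and 2.93 with GQ-16. The groups did not overlap, and the difference was 0.99 (0.26 to 1.72). The beta subunit gene Scnn1b was at 3.40, 2.43, 4.03 and 5.62 with pioglitazone and at 9.17, 7.18, 4.00 and 5.33 with GQ-16, with overlap and a difference of 0.73 (0.12 to 1.34). Scnn1a, the alpha subunit, was at 0.15 (-0.51 to 0.80). Avpr2, the V2 vasopressin receptor, was at 1.43 to 1.90 with pioglitazone and at 2.20 to 4.02 with GQ-16, a difference of 0.87 (0.04 to 1.7). Sgk1, the kinase that raises sodium channel activity, went the other way, at 882, 591, 492 and 418 with pioglitazone and 383, 527, 308 and 276 with GQ-16, a log2 difference of -0.66 (-1.20 to -0.12). Of 18 measured sodium and water transport genes, 16 were higher and 2 lower, with a median of 0.17. An unadjusted p under 0.05 was found for 5 higher and 1 lower, beside 2.2% and 4.95% of all genes. The count of higher genes at that p was 2 without GQ-16 replicate 1, 2 without GQ-16 replicate 2, 2 without pioglitazone replicate 2 and 3 without pioglitazone replicate 1, beside 1.37%, 2.93%, 1.51% and 1.01% of all genes in the same fits. The median was 0.027 without pioglitazone replicate 4 and 0.041 without GQ-16 replicate 1, but 0.29 without pioglitazone replicate 3 and 0.30 without GQ-16 replicate 4.

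**Figure D3:**
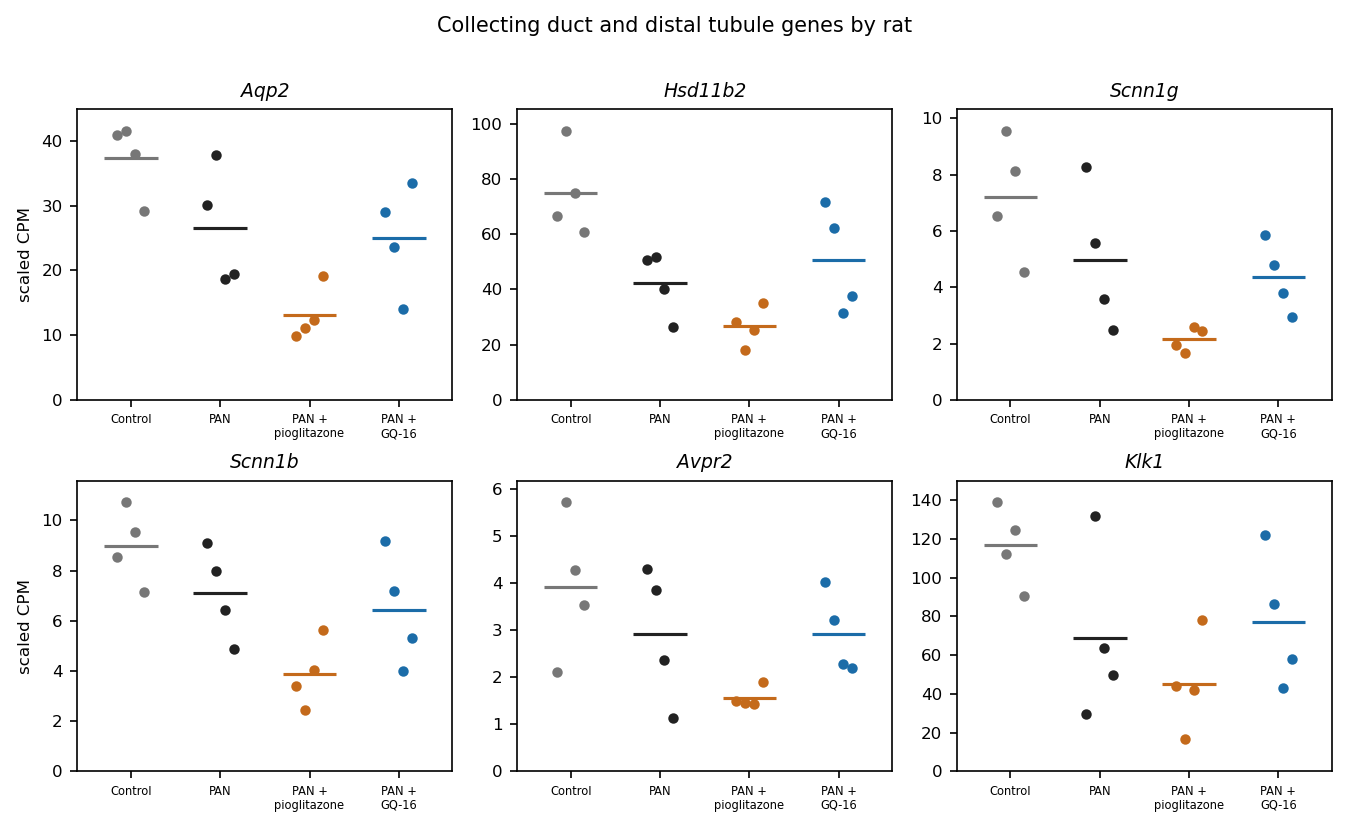
Scaled CPM (y axes, linear, from 0) of 6 genes of the collecting duct and distal tubule in each of the 16 rats by group (x axes). Points are rats and lines are group means of 4. The pioglitazone rats are the lowest group on average in each panel, and Scnn1g (1.67 to 2.58 with pioglitazone, 2.93 to 5.86 with GQ-16) is without overlap. Scnn1b, Avpr2 and Klk1 were chosen after their values were seen and the others as list members of smallest p. The shared order of the panels follows in part from that choice. Scnn1a is not drawn, and Klk1 had a log2 difference of 0.85 (-0.15 to 1.86).

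In bulk tissue fewer cells of a type and less RNA per cell cannot be told apart, and the tubule content of the preparations varied. The summed level of the distal list was 1101 to 1359 scaled CPM in the pioglitazone rats and 1015 to 2377 in the GQ-16 rats, with 699 to 1741 in PAN rats and 1831 to 3743 in controls. Its mean log2 level was 4.78, 4.35, 4.68 and 4.72 with pioglitazone and 5.64, 5.58, 4.69 and 4.56 with GQ-16, so that GQ-16 replicates 1 and 2 were high and the other 2 were inside the pioglitazone range. Umod, which encodes the urinary protein uromodulin of the thick ascending limb, was at 310, 268, 314 and 316 with pioglitazone and at 593, 612, 283 and 341 with GQ-16. It was high in the same 2 rats. Proximal tubule genes were higher in 21 of 21, with a median of 0.29 and 0 at an unadjusted p under 0.05 (2.2% of all genes higher), and their level was highest in pioglitazone replicate 3. Their median was 0.12 without GQ-16 replicate 1, 0.14 without pioglitazone replicate 1 and 0.11 without pioglitazone replicate 4. It was 0.64 without pioglitazone replicate 3, where 3 genes were higher at an unadjusted p under 0.05 beside 3.61% of all genes. With the tubule covariate, which itself contains genes of these lists, 13 distal genes were higher and 5 lower, with a median of 0.11. Of the proximal tubule genes 3 were then higher and 18 lower, with a median of -0.20. Of these 5 were lower at an unadjusted p under 0.05, beside 659 of all 13222 genes. Of the sodium and water transport genes 10 were then higher and 8 lower, with a median of 0.027. Without the covariate, and with 1 treated rat left out, the distal median ran from 0.23 (without GQ-16 replicate 1) to 0.59 (without GQ-16 replicate 4). The log2 differences with the covariate were 0.97 for Aqp2, 0.88 for Hsd11b2, 1.03 for Scnn1g and 0.25 for Umod. Over all 19 alternatives Aqp2 ranged from 0.45 to 1.17 and Hsd11b2 from 0.46 to 1.15.

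Podocyte genes were on balance higher with GQ-16, with wide spread between rats. Of 33 measured genes, 30 were higher and 3 lower, with a median log2 difference of 0.32, 0 called and 1 gene, lower, at an unadjusted p under 0.05 beside 4.95% of all genes. With the mitochondrial share of reads as a covariate the median was 0.46 and 13 of 33 were higher at that p, beside 5.42% of all genes in that fit, again with 0 called. Nphs1 was at 805, 1365, 1971 and 2322 scaled CPM with pioglitazone and at 1801, 1145, 2506 and 3289 with GQ-16. The ranges overlapped widely, and the interval of its log2 difference of 0.44 ran from -0.51 to 1.38. Wt1, the podocyte transcription factor, was at 82.5, 174, 237 and 259 with pioglitazone and at 212, 144, 279 and 328 with GQ-16, a difference of 0.42 (-0.51 to 1.34). Vegfa, the growth factor that podocytes supply to the endothelium, was at 710, 1098, 1644 and 2170 with pioglitazone and at 2045, 1742, 2146 and 2430 with GQ-16, at 0.68 (-0.004 to 1.37). Controls had the lowest mean of the 4 groups in these 3 genes, at 979, 102 and 1200 scaled CPM. GQ-16 rats had the highest, at 2185, 241 and 2091, and so lay furthest from the controls. Pioglitazone replicate 1 was the lowest treated rat in each of these 3 genes, and without it the list median was 0.088 with 25 of 33 genes higher. The median was also low without GQ-16 replicate 4, at 0.12, and it was 0.61 without GQ-16 replicate 2 and 0.56 without pioglitazone replicate 4.

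The podocyte gene with an unadjusted p under 0.05 was Trpc6, the calcium channel gene mutated in familial focal segmental glomerulosclerosis. It was at 5.99, 7.25, 4.58 and 5.5 scaled CPM with pioglitazone and at 2.23, 4.09, 4.90 and 4.77 with GQ-16. The groups overlapped through pioglitazone replicate 3, and controls were at 2.39 to 2.98. The log2 difference was -0.59 (-1.12 to -0.06). The other 2 lower podocyte genes were Thsd7a at -0.059 and Lamb2 at -0.079, both with intervals that held 0.

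Genes of mesangial and smooth muscle cells, the contractile support cells of the capillary tuft, mostly had lower fitted levels with GQ-16. Of 15 measured genes, 13 were lower and 2 higher, with a median log2 difference of -0.455, 0 called and 4 lower at an unadjusted p under 0.05 beside 4.95% of all genes. Cspg4, the pericyte proteoglycan NG2, was at 96.8, 71.1, 58.4 and 51.3 scaled CPM with pioglitazone and at 31, 48, 41.8 and 41.4 with GQ-16, a difference of -0.75 (-1.22 to -0.28). Notch3, the mural cell Notch receptor, was at 315, 233, 194 and 188 and at 104, 182, 158 and 158 in the same order, at -0.62 (-1.04 to -0.21). Neither gene overlapped between the drugs, and both were lowest in GQ-16 replicate 1. Gata3, a mesangial transcription factor, was at -0.48 (-0.86 to -0.09), and Pdgfrb, the mesangial growth factor receptor, at -0.49 (-1 to 0.03). Rgs5, a pericyte regulator of G protein signalling, had the largest difference of the list at -1.45 (-2.55 to -0.35), with pioglitazone rats at 50.2, 16, 13.2 and 52.3 and GQ-16 rats at 14.6, 8.23, 6.31 and 12.9. The mean log2 level of the list was 6.27 to 6.68 with pioglitazone and 5.70, 5.71, 6.15 and 6.54 with GQ-16, where GQ-16 replicate 4 lay inside the pioglitazone range. The list median was -0.29 without GQ-16 replicate 1, and with the tubule covariate it was -0.17 with 11 of 15 genes lower.

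Endothelial genes gave 18 of 20 lower, with a median of -0.26 and 2 lower at an unadjusted p under 0.05, beside 4.95% of all genes. Ptprb, the vascular endothelial tyrosine phosphatase, was at 1053, 632, 466 and 614 scaled CPM with pioglitazone and at 251, 429, 373 and 453 with GQ-16, a difference of -0.85 (-1.43 to -0.26) without overlap. Ehd3, a marker of the glomerular capillary endothelium, was at 2248, 1551, 1037 and 1004 and at 776, 1057, 905 and 763, with overlap, at -0.67 (-1.17 to -0.17). Kdr, the main VEGF receptor, had -0.20 (-0.79 to 0.40). Pioglitazone replicate 1 had the highest mean level of this list of all 8 treated rats, 8.83 log2 units against 7.79 to 8.43 in the others, and the lowest mean of the podocyte list, 7.16 against 7.47 to 8.72. Without it the endothelial median was -0.063, with 15 of 20 genes lower, and with the tubule covariate it was -0.12, with 17 lower. Without GQ-16 replicate 3 the median was -0.16. It was -0.42 without pioglitazone replicate 3 and -0.39 without GQ-16 replicate 2, with 4 lower at an unadjusted p under 0.05 in each, beside 7.55% and 5.91% of all genes.

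Of 27 measured genes of the interstitial matrix, 21 were lower and 6 higher with GQ-16, with a median of -0.26, 0 called and 6 lower at an unadjusted p under 0.05 beside 4.95% of all genes. Besides Vcan these included Col12a1, a fibril-associated collagen, at 414, 326, 299 and 342 scaled CPM with pioglitazone and 124, 231, 276 and 216 with GQ-16, a difference of -0.75 (-1.25 to -0.26). Col8a1, a short-chain collagen, was at 33.8, 31.1, 12.5 and 19.7 with pioglitazone and at 3.76, 10.9, 15.3 and 10.5 with GQ-16, at -1.33 (-2.27 to -0.39) with overlap. The crosslinking enzyme gene Loxl2 was at -0.90 and Eln, which encodes elastin, at -0.66. Col1a1, the fibrillar collagen, lay on the other side, at 170, 152, 266 and 253 with pioglitazone and at 455, 200, 816 and 754 with GQ-16. GQ-16 replicate 2 fell inside the pioglitazone range and the interval was wide, 1.25 (-0.34 to 2.85), with controls at 10.3 to 54.1 and PAN rats at 81.0 to 1544. Without GQ-16 replicate 1, 3 of 27 had an unadjusted p under 0.05, beside 1.79% of all genes lower in that fit, and the median was -0.11. With the tubule covariate 13 were higher and 14 lower, with a median of -0.0069.

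In the basement membrane list 8 of 15 genes were lower and 7 higher with GQ-16, with a median of -0.079, 0 called and 2 lower at an unadjusted p under 0.05 beside 4.95% of all genes. The median was 0.032, with 9 of 15 higher, without GQ-16 replicate 1, and -0.16 without GQ-16 replicate 4. The number lower at that p ran from 1 to 4 with 1 treated rat left out. It was 1 without GQ-16 replicate 1, beside 1.79% of all genes, and 4 without GQ-16 replicate 2, beside 5.91%. With all rats the 2 genes were the laminin genes Lama4 (-0.63, -1.06 to -0.21) and Lamc1 (-0.52, -0.94 to -0.10). The other laminin genes lay on both sides of 0, with Lama5 at -0.12, Lamb2 at -0.079, Lamb1 at 0.13 and Lama1 at 0.34. Of the collagen IV genes, Col4a1 was at -0.44 (-0.90 to 0.03) and Col4a2 at -0.39 (-0.84 to 0.06). Col4a3, Col4a4 and Col4a5, whose chains form the mature glomerular basement membrane network made by podocytes, were at 0.35, 0.26 and 0.47, and the intervals of all 5 held 0. Lama4 was at 564, 380, 271 and 352 scaled CPM with pioglitazone and at 215, 299, 221 and 248 with GQ-16, overlapping through pioglitazone replicate 3.

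**Figure D4:**
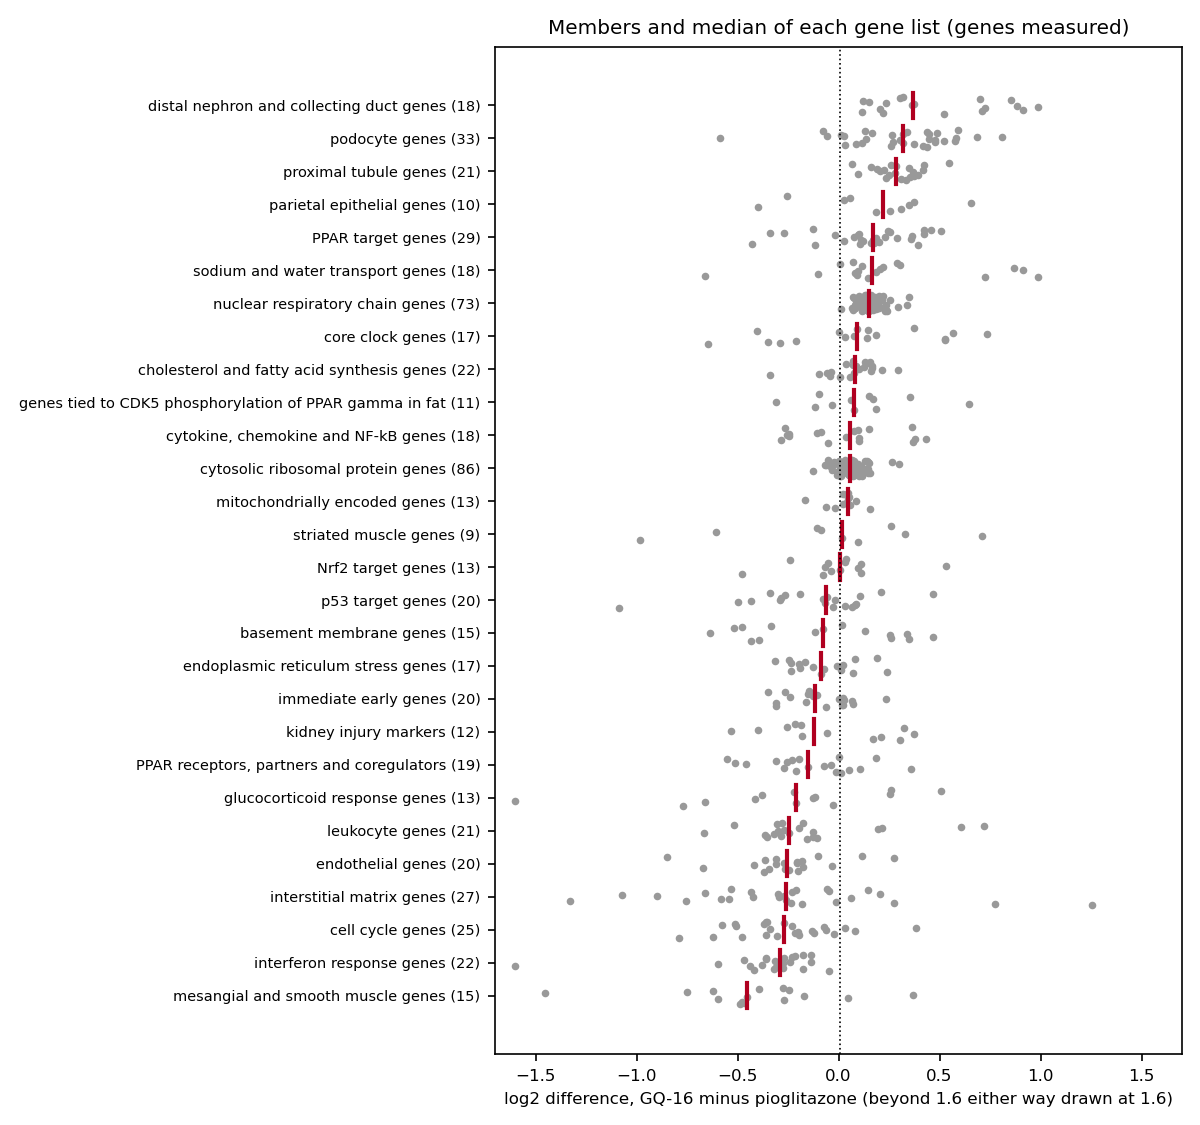
Log2 difference between GQ-16 and pioglitazone (x axis) of the measured members of 28 gene lists (rows, number measured in brackets). Grey points are genes, red bars are list medians, and points beyond 1.6 either way are drawn at 1.6. Medians run from -0.455 for mesangial and smooth muscle genes to 0.37 for distal nephron and collecting duct genes, with 0 genes called in any list.

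The largest fitted differences belonged to genes that were variable between rats or low in level. Zbtb16, a zinc finger gene strongly induced by glucocorticoids, was at 174, 15.4, 3.88 and 1.29 scaled CPM with pioglitazone and at 0.972, 1.01, 1.19 and 1.37 with GQ-16. Its difference of -3.26 (-5.84 to -0.68) was -1.92 without pioglitazone replicate 1, and pioglitazone replicate 4 was at the GQ-16 level. Fkbp5, another glucocorticoid-induced gene, was at 158, 87.0, 138 and 39.1 with pioglitazone and at 60.2, 37.7, 59.3 and 64.8 with GQ-16, with the same replicate 4 low, at -0.77 (-1.69 to 0.14). In the glucocorticoid list 10 of 13 were lower, with a median of -0.21 and 3 lower at an unadjusted p under 0.05, beside 4.95% of all genes. These were Zbtb16, Sgk1 and Klf9, and without pioglitazone replicate 1 there were 0, beside 1.68% of all genes. The median was -0.10 without GQ-16 replicate 1, and -0.13 without GQ-16 replicate 2 and also without GQ-16 replicate 3. Ifit1, an interferon-induced antiviral gene, was at 14.6, 60.0, 25.6 and 68.2 with pioglitazone and at 0.394, 36.3, 0.48 and 20 with GQ-16. It was near its floor in GQ-16 replicates 1 and 3, and as low in 1 control and 1 PAN rat, at -3.36 (-7.30 to 0.57). The 22 interferon response genes were all lower with GQ-16, with a median of -0.29 and 0 at an unadjusted p under 0.05 (4.95% of all genes lower). That median was -0.17 without GQ-16 replicate 3, -0.19 without pioglitazone replicate 4 and -0.42 without pioglitazone replicate 1. Library weights gave -0.52, with 10 of 22 lower at an unadjusted p under 0.05 beside 1303 of 13222 genes. With weights but without pioglitazone replicate 2 the median was again -0.52, with 0 at that p.

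Among genes higher with GQ-16, Asb15, a muscle-expressed ubiquitin ligase adaptor, was at 6.57, 1.28, 1.18 and 2.50 scaled CPM with pioglitazone and at 18.6, 16.9, 19.9 and 23.1 with GQ-16. The groups did not overlap, but controls (1.29 to 17.1) and PAN rats (1.33 to 22.0) spanned both levels. The difference was 3.13 (1.02 to 5.23). Kcns1, a modulatory potassium channel subunit, was at 2.42, 0.246, 0.0751 and 1.05 with pioglitazone and at 6.33, 8.67, 3.88 and 5.89 with GQ-16, where 0.0751 is below the level of 3 reads, so that the fitted 3.67 (1.61 to 5.74) depends on the read offset. Slpil2 was at 0.0820 to 2.08 with pioglitazone and at 4.28 to 6.45 with GQ-16, again with a value under 3 reads, and its controls ranged from 0.308 to 8.74. Fam131b and Prune2 were lower with GQ-16 at a mean under 5 CPM, at -1.33 and -1.07. These 5 genes were chosen after their values were seen.

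The remaining lists differed less or rested on single rats. Cell cycle genes were lower in 22 of 25, with a median of -0.27. The level of this list in GQ-16 replicate 4 was 2.66 log2 units against 3.88 to 4.43 in the other 7 rats. Mki67, the proliferation marker, was at 8.79 scaled CPM in that rat and at 36.3 to 73.6 in the others, and without it the list median was 0.16. It was -0.14 without pioglitazone replicate 2 and -0.46 without GQ-16 replicate 2. Leukocyte genes were lower in 17 of 21, with a median of -0.25. The 1 member at an unadjusted p under 0.05 was higher, S100a9 at 0.72 (0.02 to 1.42), beside 2.2% of all genes. With the tubule covariate 15 were higher and 6 lower, with a median of 0.14, and with libraries numbered 15 or lower 9 were higher and 12 lower, with a median of -0.043. The median was -0.12 without GQ-16 replicate 1, -0.13 without GQ-16 replicate 4 and -0.098 without pioglitazone replicate 1, but -0.41 without GQ-16 replicate 2 and also without pioglitazone replicate 3. Mrc1, the macrophage mannose receptor, was at 37.2, 20.5, 19.9 and 21.3 with pioglitazone and at 10.5, 17.2, 16 and 17.6 with GQ-16, at -0.67 (-1.41 to 0.07). Nuclear genes of the respiratory chain were higher in 73 of 73 (72 of 73 without centring), with a median of 0.15, 1 higher at an unadjusted p under 0.05 beside 2.2% of all genes, and every interval within 2-fold. With the tubule covariate 22 were higher and 51 lower, with a median of -0.047. In the fits without the covariate the median was 0.044 without GQ-16 replicate 1, 0.085 without pioglitazone replicate 1 and 0.23 without GQ-16 replicate 4. Cytosolic ribosomal protein genes had a median of 0.055, with 84 of 86 intervals within 2-fold. That median was -0.0042 without GQ-16 replicate 1, -0.0047 without pioglitazone replicate 3 and 0.11 without GQ-16 replicate 3, and library weights gave -0.065 with 73 of 86 lower. Parietal epithelial genes were higher in 8 of 10, with a median of 0.22, and that median was -0.018 without pioglitazone replicate 1, 0.044 without GQ-16 replicate 3 and 0.35 without pioglitazone replicate 3. Smaller medians were found for kidney injury markers and immediate early genes (both -0.12), endoplasmic reticulum stress genes (-0.085) and core clock genes (0.089). Cholesterol and fatty acid synthesis genes were at 0.080, cytokine and NF-kB genes at 0.056, mitochondrially encoded genes at 0.045, striated muscle genes at 0.017 and Nrf2 target genes at 0.0072. None of these medians was stable to leaving out a rat. Kidney injury markers ran from -0.19 (without pioglitazone replicate 3) to 0.0011 (without GQ-16 replicate 1) and immediate early genes from -0.16 (without pioglitazone replicate 2) to -0.0022 (without pioglitazone replicate 1). With the tubule covariate 9 kidney injury markers were higher and 3 lower, with a median of 0.31. Core clock genes ran from -0.053 (without pioglitazone replicate 1) to 0.20 (without GQ-16 replicate 2). Cholesterol and fatty acid synthesis genes ran from 0.039 (without pioglitazone replicate 1) to 0.15 (without pioglitazone replicate 3), and cytokine and NF-kB genes from -0.037 (without GQ-16 replicate 4) to 0.14 (without pioglitazone replicate 4). Mitochondrially encoded genes ran from -0.45 (without GQ-16 replicate 2) to 0.42 (without GQ-16 replicate 4), striated muscle genes from -0.26 (without pioglitazone replicate 1) to 0.31 (without GQ-16 replicate 2) and Nrf2 target genes from -0.051 (without pioglitazone replicate 4) to 0.085 (without pioglitazone replicate 3). The endoplasmic reticulum stress median was -0.25 without GQ-16 replicate 4, -0.17 without pioglitazone replicate 4 and -0.30 with libraries numbered 15 or lower, with 4, 5 and 7 of 17 genes lower at an unadjusted p under 0.05, beside 4.78%, 5.6% and 5.13% of all genes. Without GQ-16 replicate 2 it was 0.042. Medians of the Nrf2, striated muscle and mitochondrially encoded lists changed sign between scalings. Lcn2, an injury marker, was at 2.47 to 8.01 with pioglitazone and 3.21 to 9.58 with GQ-16, at 0.30 (-1.05 to 1.66).

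**Figure D5:**
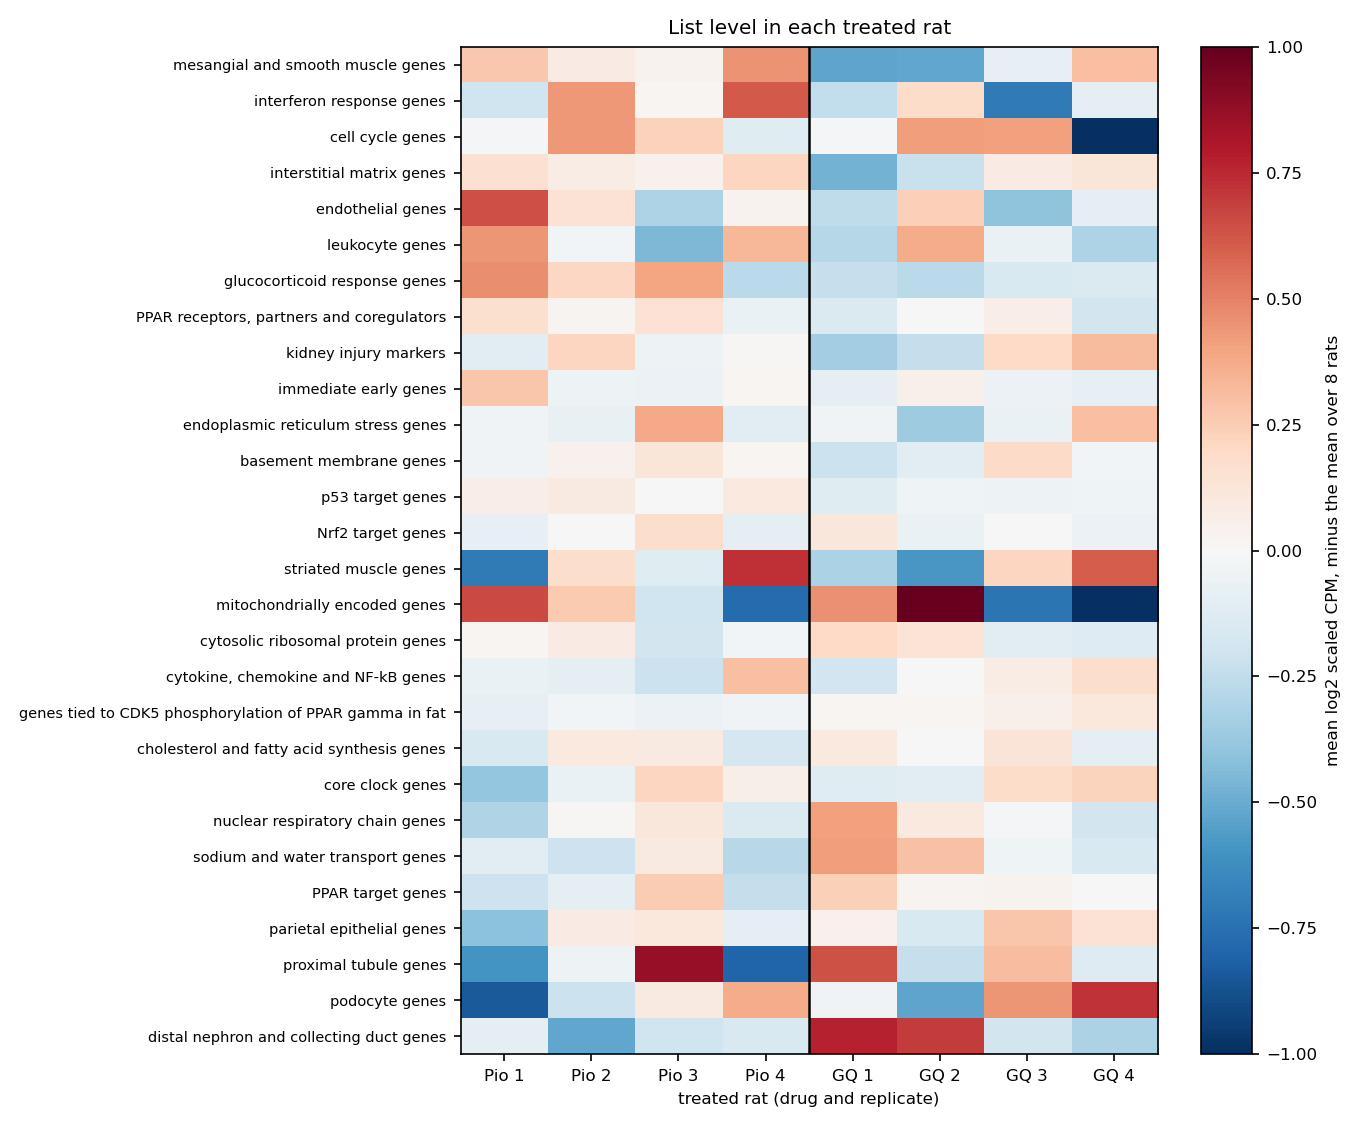
Mean log2 scaled CPM of each gene list (rows) in each of the 8 treated rats (columns, Pio for pioglitazone and GQ for GQ-16), shown as the difference from the mean over the 8 rats (colour, ending at 1 and -1). Only the p53 target list (4.63 to 4.72 with pioglitazone, 4.50 to 4.58 with GQ-16) and the list tied to Cdk5 (6.74 to 6.79 and 6.85 to 6.93) separate the rats of the drugs. The first no longer does so without Cdkn1a and the second without Selenbp1, and no other member was left out. Pioglitazone replicate 1 stands out by a low podocyte list (7.16 log2 units) and a high endothelial list (8.83).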

How the data were processed

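Glomerular RNA of 16 rats was compared in 4 groups of 4. The deposited values are log2 CPM, and the submitters' processing notes name HISAT2, featureCounts, Subread, limma and the build Rnor_6.0 without giving their roles or versions. The deposited values carry an offset of 0.5 read per count and are scaled to the library total. Undoing this gave whole reads for 100% of values within a tolerance of 0.05. A count of 3 reads corresponded to 0.137 to 0.225 CPM in the treated libraries, and the table holds genes that reach 2 CPM in 8 or more libraries. Each column was centred on its median, and 4 group means were fitted to the 16 libraries with limma 3.58.1 in R 4.3.3, with a variance trend, two-sided tests and Benjamini-Hochberg adjustment over 13222 genes. Scaled CPM is the centred value returned to a linear scale. The design allowed for several units, and its test for log2 values was used. The code was tested on simulated data.

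The named genes, not all of which are printed here, start with the 12 higher and 12 lower of smallest p. These were taken among genes with a symbol and a mean of at least 5 CPM over the 8 rats. A fixed list of 12 genes was added whatever their values, except that Pparg, Angptl4, Fabp4 and Cd36 are not analysed here. The 2 members of each list with the smallest p were added as well. Some were chosen after their values were seen, such as Ncoa2, Ncoa3, Med1, Cdk5, Scnn1b, Avpr2, Rgs5, Col8a1, Loxl2, Lpl, Fkbp5 and Mki67. Other list members are named as examples. A gene among the 12 lower is not reported here. The comparison, the 28 lists and the rules were chosen with earlier results of these data known, so lists are described by counts and medians and not tested. No pair of libraries of a group matched within sampling noise (chi-square per gene 13.3 to 297). Reads without molecular identifiers are not independent molecules, so intervals from counts cover counting error only. Of the leading genes 18 were found in the RefSeq promoter table of assembly GRCr8. The alternatives were other scalings, pseudocount, filter, covariates, weights and samples. The fit weighted by library without pioglitazone replicate 2 was added after the data were seen, as were the 2 lists without a single member.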

Additional observations from a re-analysis of the deposited data

Results flagged for a closer look

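In each treated group of 4 rats, the library measures, lists and named genes were searched for a single rat beyond the other 3 by Dixon's 95% limit. Of 268 groups 13 held such a rat, and chance gives about 13.4. The values are log2 scaled CPM and their causes were not tested.

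Pioglitazone replicate 1 was set apart in 5 genes. It was high in Ep300 (5.593, others 5.142 to 5.217) and Mrc1 (5.218, others 4.314 to 4.414). It was low in Anks3 (4.831, others 5.124 to 5.178), Atf4 (6.71, others 6.854 to 6.871) and Ech1 (5.982, others 6.021 to 6.026). Pioglitazone replicate 2 was low in Umod (8.066, others 8.276 to 8.304). Pioglitazone replicate 3 was high in the endoplasmic reticulum stress list (6.791, others 6.299 to 6.38) and low in Stat2 (6.425, others 6.575 to 6.593). Pioglitazone replicate 4 was high in Avpr2 (0.9221, others 0.5122 to 0.576).

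GQ-16 replicate 1 was high in the PPAR target list (5.852, others 5.61 to 5.649) and low in the p53 target list (4.501, others 4.576 to 4.584). GQ-16 replicate 2 was low in Fkbp5 (5.238, others 5.891 to 6.017), and GQ-16 replicate 3 was high in Tp53inp1 (3.2, others 2.789 to 2.842).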

How the results depend on the processing

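The count of called genes was 0 in the main analysis and in each alternative except library weights, which called 2 genes, Ptgs1 (-0.83) and Vcan (-1.195), and 0 without pioglitazone replicate 2. Leaving out each of the 8 treated rats in turn gave 0 calls. Of 104 named genes 97 kept their sign throughout. The 7 others had log2 differences whose intervals held 0, and the cause of their reversals was not tested. Library weights gave -0.18 for Lcn2, -0.45 for Mt-nd6 and -0.0067 for Cdk5. Library weights without pioglitazone replicate 2 gave -0.029 for Col3a1, -0.036 for Ccng1, 0.043 for Mt-nd4l and -0.082 for Cdk5. The tubule covariate gave 0.018 for Mdm2, -0.015 for Ccng1 and -0.25 for Mt-nd6, and the mitochondrial covariate -0.080 for Mt-nd6. Libraries numbered 15 or lower gave 0.053 for Mdm2. Cdk5 was at -0.031 without centring and -0.012 under quantile normalization. With each rat left out, Mdm2 ran from -0.085 to 0.017, Ccng1 from -0.12 to 0.21, Mt-nd4l from -0.59 to 0.20, Mt-nd6 from -0.42 to 0.62 and Cdk5 from -0.043 to 0.058. The difference in mitochondrial share ran from -2.83 to 5.37 points. The count at an unadjusted p under 0.05 ran from 355 to 1475 with a rat left out, and was 1643 with the mitochondrial covariate, 2437 with library weights and 425 with weights but without pioglitazone replicate 2. Of the 28 list medians 16 changed sign under at least 1 alternative, none of them a list of p53, PPAR, podocyte, distal nephron, endothelial, mesangial, interstitial matrix, glucocorticoid or interferon genes. No paired analysis was possible because the labels give the rats no shared numbers. With 4 rats a group the median interval of 0.32 log2 units limits what could be called, and the effect of depth on the calls was not tested.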
